A study of Mus musculus with 16 samples.

Results

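A set of 10 genes that encode amino acid transporters was followed in RNA sequencing of the tibialis anterior, a shin muscle of the mouse made up largely of fast fibres. Their rows were taken by gene symbol, from a list drawn up with earlier results of these data known. Of its symbols, 10 of 10 (Slc38a2, Slc38a4, Slc38a3, Slc38a10, Slc7a8, Slc7a5, Slc3a2, Slc1a5, Slc7a2 and Slc7a1) were found among the 14538 genes of the deposited table. All 10 reached a mean of 10 normalized counts or more and were thus among the 11841 genes tested. The 16 libraries came from male WT mice labelled C57BL/6 (C57BL/6J in the methods of the study), all kept on a NASH diet that began at 8 weeks of age, housed singly at about 29 °C and killed in the fed state. Of these, 5 mice received vehicle (Vehicle), 6 received recombinant GDF15 by a daily subcutaneous injection (GDF15), and 5 had their daily food limited to what GDF15-treated mice ate the day before (PairFed). The labels list several GDF15 doses for the study and do not say which of them these mice received. One library was made from each mouse, so that the replicates are separate animals, and the pair-fed mice carry the numbers 2 to 6. The comparison of GDF15-treated with pair-fed mice asks what GDF15 does beyond its effect on food intake, and the comparison of pair-fed with vehicle-treated mice asks what the lower intake does on its own.

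Muscle holds most of the free amino acids of the body, and it takes up and releases them through membrane carriers of the SLC families. The SLC38 carriers SNAT2 and SNAT4 (Slc38a2 and Slc38a4) move small neutral amino acids into the cell together with sodium, and SNAT3 (Slc38a3) carries glutamine in either direction. LAT1 and LAT2 (Slc7a5 and Slc7a8) exchange large neutral amino acids such as leucine, but reach the plasma membrane only as pairs with the heavy chain 4F2hc, also called CD98 (Slc3a2). ASCT2 (Slc1a5) exchanges small neutral amino acids including glutamine, and CAT1 and CAT2 (Slc7a1 and Slc7a2) carry the cationic amino acids arginine, lysine and ornithine. Transcription of Slc38a2 is known to rise when cells lack amino acids, through ATF4, the factor that also drives Chac1 and Asns.

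Vehicle libraries held about 11867181 to 15039282 reads, GDF15 libraries 9479218 to 13831272 and pair-fed libraries 11774516 to 14788070. Fast fibre markers (7 of 7 genes, Ckm and Myh4 among them) were high in every library, with summed levels of 1912500 to 2331400 normalized counts. Values below are normalized counts, that is, counts scaled for library size, obtained from the deposited log2 values by reversing the variance stabilizing transformation whose form they have. Differences are log2 fold changes of the normalized count plus 1 with limma across all tested genes, and adjusted p-values are those of Benjamini and Hochberg over all 11841 genes.

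Against vehicle, the pair-fed mice had lower Slc38a2 and Slc38a4 and higher Slc7a2, and none of these 3 genes passed the test between the GDF15-treated and vehicle-treated mice. Slc7a8 was higher in the GDF15-treated mice than in vehicle-treated mice, and Slc38a4 was higher in the GDF15-treated mice than in pair-fed mice. Slc38a2 was also higher and Slc7a2 lower in GDF15-treated than in pair-fed mice, both close to the threshold. No transporter reached a log2 fold change of 0.6 in either direction, and the largest was 0.58. With limma, 0 of 10 transporters therefore met both thresholds of the study, an adjusted p below 0.1 together with that fold, in each of the 3 comparisons. The share of all tested genes past these thresholds was 0.279% for GDF15 against pair-fed, 0.304% for GDF15 against vehicle and 0.819% for pair-fed against vehicle. At an unadjusted p under 0.05, 4, 2 and 5 of the 10 transporters passed in the same order, beside 13.2%, 11.0% and 18.9% of all tested genes, and 0 of them reached the fold threshold.

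By the adjusted p-value alone, 3 of 10 transporters passed in pair-fed against vehicle, where 6.37% of all tested genes did. In GDF15 against pair-fed 3 of 10 passed, beside 2.17% of all genes, and in GDF15 against vehicle 1 of 10 passed, beside 0.769%. Values without overlap between the groups were found for 2 of 10 transporters in pair-fed against vehicle (5.44% of all genes), for 1 of 10 in GDF15 against pair-fed (1.77%) and for 1 of 10 in GDF15 against vehicle (1.65%). The median log2 fold change of the 10 genes was 0.02, 0.15 and 0.09 for pair-fed against vehicle, GDF15 against pair-fed and GDF15 against vehicle, and the median over all tested genes was within 0.0025 of 0 in each. The comparisons share mice: the pair-fed mice enter both pair-fed against vehicle and GDF15 against pair-fed, so a pair-fed value that stands apart shows in both. Because the list was drawn up with earlier results of these data known, its shares beside those of all genes are a description only.

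**Figure D1:**
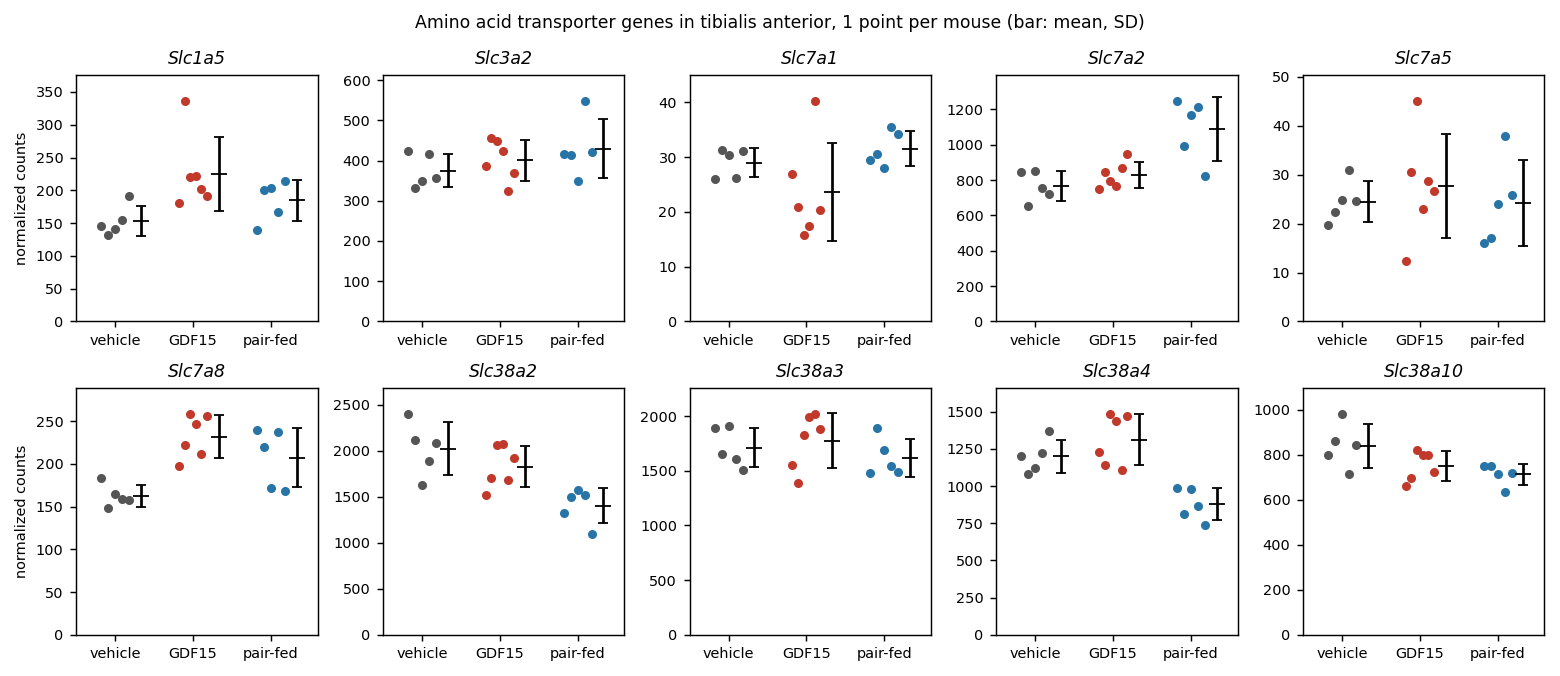
Normalized counts (vertical axes, from 0) of the 10 transporters in vehicle, GDF15 and pair-fed mice, with 1 point per mouse and a bar for the mean and SD (n = 5, 6 and 5). The 5 pair-fed mice lie below all other mice for Slc38a4 and 4 of them above all other mice for Slc7a2, and 1 GDF15-treated mouse stands high for Slc1a5.

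Of the SLC38 carriers, Slc38a2 (SNAT2, chr15:96687392-96699730, minus strand, GRCm38) was lower in the pair-fed mice. The vehicle-treated mice had 2398, 2116, 1629, 1885.5 and 2085 normalized counts of Slc38a2. The pair-fed mice had 1329, 1493.5, 1576, 1516 and 1100, and the GDF15-treated mice ranged from 1520 through a median of 1813 to 2080. Each pair-fed mouse lay below each vehicle-treated mouse, while the GDF15-treated mice overlapped both groups. Slc38a2 fell by 0.53 on the log2 scale (SE 0.11, 95% interval -0.76 to -0.29) with pair-feeding, 0.694-fold of vehicle, with an adjusted p of 0.016 by limma. GDF15-treated mice had 1.31-fold the level of pair-fed mice (log2 fold change 0.39, 95% interval 0.16 to 0.61, adjusted p = 0.0922). Against vehicle their difference was -0.14 (95% interval -0.36 to 0.08, adjusted p = 0.68). In bulk muscle, fewer cells of a type and less RNA per cell cannot be told apart.

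The difference of Slc38a2 between GDF15-treated and pair-fed mice lay close to the threshold. It no longer passed without any 1 of 11 libraries: vehicle mouse 2, 4 or 5 (adjusted p = 0.115, 0.113 and 0.113), GDF15 mouse 2, 3, 4, 5 or 6 (0.129, 0.175, 0.195, 0.112 and 0.147), or pair-fed mouse 2, 5 or 6 (0.189, 0.168 and 0.208). With the depth of the libraries as a covariate it was 0.29 (adjusted p = 0.332), and it also failed to pass with no minimum mean (adjusted p = 0.106) and with library weights (0.112). The same held with no trend (0.166), with the mouse number as a block (0.175) and with only the 2 groups compared (0.128). The difference between pair-fed and vehicle-treated mice passed in each of the 28 alternatives.

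Slc38a4 (SNAT4, chr15:96994820-97055956, minus strand) lies 295 kb from Slc38a2 on the same chromosome and was lower in the pair-fed mice than in both other groups. The vehicle-treated mice had 1203, 1084, 1119.5, 1224 and 1368.5 normalized counts of Slc38a4. The pair-fed mice had 989.6, 813.2, 980.5, 862.8 and 738.7, and the GDF15-treated mice ranged from 1107 through a median of 1333 to 1483. All 5 pair-fed mice lay below every other mouse, and the GDF15 and vehicle ranges overlapped. Slc38a4 fell by 0.46 on the log2 scale (SE 0.10, 95% interval -0.66 to -0.25, adjusted p = 0.0167) from vehicle to pair-fed, 0.729-fold. From pair-fed to GDF15 it was 1.49-fold higher (log2 fold change 0.58, SE 0.09, 95% interval 0.38 to 0.77, adjusted p = 0.00718). Both differences passed in each of the 28 alternatives, with adjusted p-values of 0.0131 to 0.0565 and of 0.00672 to 0.0457. Between GDF15 and vehicle the difference was 0.12 (95% interval -0.07 to 0.32, adjusted p = 0.685).

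The 250 bases before the start sites of Slc38a2 and Slc38a4 are shown because these neighbouring genes of 1 family were both lower in the pair-fed mice. They are written 5′ to 3′ along the gene, from RefSeq on GRCm38.p6, at chr15:96699729-96699978 and chr15:97055957-97056206, both on the minus strand, with CpG dinucleotides in capitals.
Slc38a2: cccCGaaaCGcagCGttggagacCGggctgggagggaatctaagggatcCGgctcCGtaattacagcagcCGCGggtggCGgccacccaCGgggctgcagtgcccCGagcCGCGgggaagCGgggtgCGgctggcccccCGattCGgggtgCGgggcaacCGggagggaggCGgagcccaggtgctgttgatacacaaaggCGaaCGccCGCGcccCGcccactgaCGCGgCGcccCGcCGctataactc
Slc38a4: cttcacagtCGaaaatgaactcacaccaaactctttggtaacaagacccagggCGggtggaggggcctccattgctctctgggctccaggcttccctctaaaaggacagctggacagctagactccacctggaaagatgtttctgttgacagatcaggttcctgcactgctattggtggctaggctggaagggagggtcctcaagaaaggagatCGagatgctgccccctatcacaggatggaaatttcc
The Slc38a2 sequence held 30 CpG dinucleotides and 72.0% G and C, and 5.94% of all RefSeq promoter windows of the same length held as many CpG. The Slc38a4 sequence, before the outermost of 3 start sites, held 3 CpG and 52.8% G and C, and 37.8% of windows held as few. The median over all windows was 6. Start-site windows of 250 bases upstream and 50 downstream were found for 6 of the 10 genes, 9 windows in all, and were searched on both strands for TTGNATCA (an ATF4 composite motif), TGACGTCA (a cAMP response element) and TTGTTTAC (a FoxO motif). None of the 9 windows held any of the 3, which 2.67%, 1.79% and 1.23% of all 32851 windows did. With shares this small and only 9 windows, finding none was the likely outcome. Sites outside the windows were not searched, so no conclusion on regulation is drawn.

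Slc38a3 (SNAT3, chr9:107650634-107669530) and Slc38a10 (chr11:120103960-120151346, a less studied member of the family) are both on the minus strand and did not pass in any comparison. Slc38a3 had 1712 ± 179 normalized counts in vehicle-treated mice (SD, n = 5), 1776 ± 254 in GDF15-treated mice (n = 6) and 1618 ± 174 in pair-fed mice (n = 5), with all 3 ranges overlapping. Its log2 fold changes were -0.08 for pair-fed against vehicle (adjusted p = 0.718), 0.05 for GDF15 against vehicle (0.912) and 0.13 for GDF15 against pair-fed (0.609). Slc38a10 had 839 ± 96.7, 750 ± 65.7 and 712 ± 46.4 normalized counts in the same order. Its difference between pair-fed and vehicle-treated mice was -0.23 (95% interval -0.40 to -0.06, adjusted p = 0.117), and in 1 of its 28 alternatives, without vehicle mouse 4, the lowest of that group, it passed at an adjusted p of 0.0549. An exon of Slc38a10 overlaps Gm11769 on the opposite strand. The library kit keeps the strand, but the strand setting of the quantification is not given in the sources used here.

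Among the large neutral amino acid exchangers, Slc7a8 (LAT2, chr14:54722209-54781946, minus strand) was higher in the GDF15-treated mice. The vehicle-treated mice had 183.2, 149.0, 165.2, 158.6 and 157.7 normalized counts of Slc7a8. The GDF15-treated mice ranged from 197.2 through a median of 234.7 to 258.2, and the pair-fed mice had 239.9, 220.2, 172.4, 237.0 and 168.2. Each GDF15-treated mouse lay above each vehicle-treated mouse, while 2 pair-fed mice lay within the vehicle range and 3 above it. Slc7a8 rose 1.42-fold with GDF15 against vehicle (log2 fold change 0.51, SE 0.11, 95% interval 0.28 to 0.73), with an adjusted p of 0.0462. In pair-fed mice it was 1.26-fold of vehicle (log2 fold change 0.34, 95% interval 0.10 to 0.57, adjusted p = 0.105), just outside the threshold. GDF15-treated and pair-fed mice differed by 0.17 (adjusted p = 0.517), so the level of Slc7a8 was not shown to differ between these 2 groups.

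The rise of Slc7a8 with GDF15 no longer passed without vehicle mouse 2 or 5 (adjusted p = 0.125 and 0.106) or without GDF15 mouse 4 or 6 (0.103 and 0.1001). With library depth as a covariate it was 0.39 (adjusted p = 0.194), and with the mouse number as a block 0.52 (adjusted p = 0.141). On the deposited log2 scale, which compresses differences of low counts, it was 0.25 and passed (adjusted p = 0.0541). The pair-fed difference of Slc7a8 passed without vehicle mouse 1 (adjusted p = 0.0972), GDF15 mouse 1 (0.0925) or pair-fed mouse 4 or 6 (0.0613 and 0.0717), with library depth as a covariate (0.0633), with library weights (0.0732) and with a minimum mean of 50 (0.0884).

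Slc7a5 (LAT1, chr8:121881150-121907694, minus strand) was measured with few reads and varied widely. Its vehicle values were 19.6, 22.4, 24.9, 30.9 and 24.7 normalized counts. The GDF15-treated mice ranged from 12.4 through a median of 27.8 to 45.1, and the pair-fed mice had 16.1, 17.0, 24.0, 37.9 and 25.8. The coefficient of variation was 17.1% in vehicle-treated, 38.5% in GDF15-treated and 36.2% in pair-fed mice. The differences of Slc7a5 were -0.07 for pair-fed against vehicle (95% interval -0.67 to 0.53, adjusted p = 0.928) and 0.10 for GDF15 against vehicle (95% interval -0.48 to 0.67, adjusted p = 0.939). For GDF15 against pair-fed it was 0.17 (adjusted p = 0.836).

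The heavy chain Slc3a2 (4F2hc, chr19:8706882-8723369, minus strand) did not pass in any comparison. It had 375 ± 41.8 normalized counts in vehicle-treated mice (SD, n = 5), 401 ± 51.0 in GDF15-treated mice (n = 6) and 429.8 ± 72.6 in pair-fed mice (n = 5). The ranges of the 3 groups overlapped, and the log2 fold changes were 0.19 for pair-fed against vehicle (adjusted p = 0.394), 0.09 for GDF15 against vehicle (0.816) and -0.09 for GDF15 against pair-fed (0.752). Across the 16 libraries, after removal of the group means, the heavy chain was compared with its partners, and LAT1 with ASCT2, as 3 relations. For Slc3a2 and Slc7a8 Pearson's r was 0.53 (permutation p = 0.0691, adjusted p = 0.207) and Spearman's rho 0.488 (permutation p = 0.0725, adjusted p = 0.217), and r was 0.37 without the 2 most distant libraries. For Slc3a2 and Slc7a5 r was 0.368 (permutation p = 0.216, adjusted p = 0.283) and rho 0.3 (permutation p = 0.299, adjusted p = 0.299), and r was 0.244 without the 2 most distant libraries. For Slc7a5 and Slc1a5 r was 0.33 (permutation p = 0.283, adjusted p = 0.283) and rho 0.362 (permutation p = 0.21, adjusted p = 0.299), and r was 0.231 without the 2 most distant libraries. None of the 3 relations passed.

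Slc1a5 (ASCT2, chr7:16781340-16798274, plus strand) did not pass the test in any comparison. The vehicle-treated mice had 146.4, 131.7, 141.2, 154.7 and 191.9 normalized counts of Slc1a5. The GDF15-treated mice ranged from 180.4 through a median of 210.9 to 336.3, and the pair-fed mice had 139.2, 200.1, 204.2, 166.6 and 214.0. Only 1 vehicle-treated mouse reached the GDF15 range, while the pair-fed mice overlapped the vehicle range and the lower part of the GDF15 range. The mean of the GDF15-treated mice was 1.45-fold that of the vehicle-treated mice on the fitted scale (log2 fold change 0.53, SE 0.15, 95% interval 0.22 to 0.85, adjusted p = 0.153). Without GDF15 mouse 2, the highest, it was 0.41 (adjusted p = 0.235), and on the deposited scale it was 0.26 (adjusted p = 0.177). Pair-fed mice differed from vehicle-treated mice by 0.26 (adjusted p = 0.38) and GDF15-treated mice from pair-fed mice by 0.27 (adjusted p = 0.454), a value that was 0.15 without GDF15 mouse 2 and 0.17 without pair-fed mouse 2.

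Of the cationic amino acid carriers, Slc7a2 (CAT2, chr8:40862396-40922308, plus strand) was higher in the pair-fed mice. The vehicle-treated mice had 843.6, 654.2, 853.0, 753.0 and 721.2 normalized counts of Slc7a2. The pair-fed mice had 1247, 995.1, 1165.5, 1216 and 821.7, and the GDF15-treated mice ranged from 748.9 through a median of 819.2 to 950.1. Of the 5 pair-fed mice, 4 exceeded every other mouse, and pair-fed mouse 6 lay within the range of both other groups. Slc7a2 rose 1.41-fold with pair-feeding against vehicle (log2 fold change 0.50, SE 0.10, 95% interval 0.28 to 0.72, adjusted p = 0.0157), and this passed in each of the 28 alternatives. It was 0.767-fold in GDF15-treated against pair-fed mice (log2 fold change -0.38, SE 0.10, 95% interval -0.59 to -0.17, adjusted p = 0.0799). Between GDF15 and vehicle the difference was 0.12 (95% interval -0.09 to 0.33, adjusted p = 0.731). An exon of Slc7a2 overlaps the long noncoding RNA gene Gm26584 on the opposite strand.

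The difference of Slc7a2 between GDF15-treated and pair-fed mice no longer passed without GDF15 mouse 1, 2, 3, 4 or 5 (adjusted p = 0.115, 0.121, 0.13, 0.159 and 0.1002) or pair-fed mouse 2, 4 or 5 (0.184, 0.15 and 0.206). With library depth as a covariate it was -0.41 (adjusted p = 0.154). It also failed to pass with no trend (adjusted p = 0.146), with the mouse number as a block (0.159) and with only the 2 groups compared (0.131).

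Slc7a1 (CAT1, chr5:148327410-148399904, minus strand), the other cationic carrier, was also measured with few reads. It had 29.0 ± 2.65 normalized counts in vehicle-treated mice (SD, n = 5), 23.6 ± 9.0 in GDF15-treated mice (n = 6) and 31.5 ± 3.17 in pair-fed mice (n = 5). Of the 6 GDF15-treated mice, 4 at 15.8 to 20.8 lay below all vehicle-treated and pair-fed mice, and the other two were at 27.0 and 40.2. Its difference between GDF15-treated and pair-fed mice was -0.47 (95% interval -0.89 to -0.04, adjusted p = 0.323), and between GDF15-treated and vehicle-treated mice -0.35 (adjusted p = 0.559). On the deposited log2 scale these were only -0.09 and -0.07, so their size rests on the reversed transformation. Pair-fed and vehicle-treated mice differed by 0.12 (adjusted p = 0.825).

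**Figure D2:**
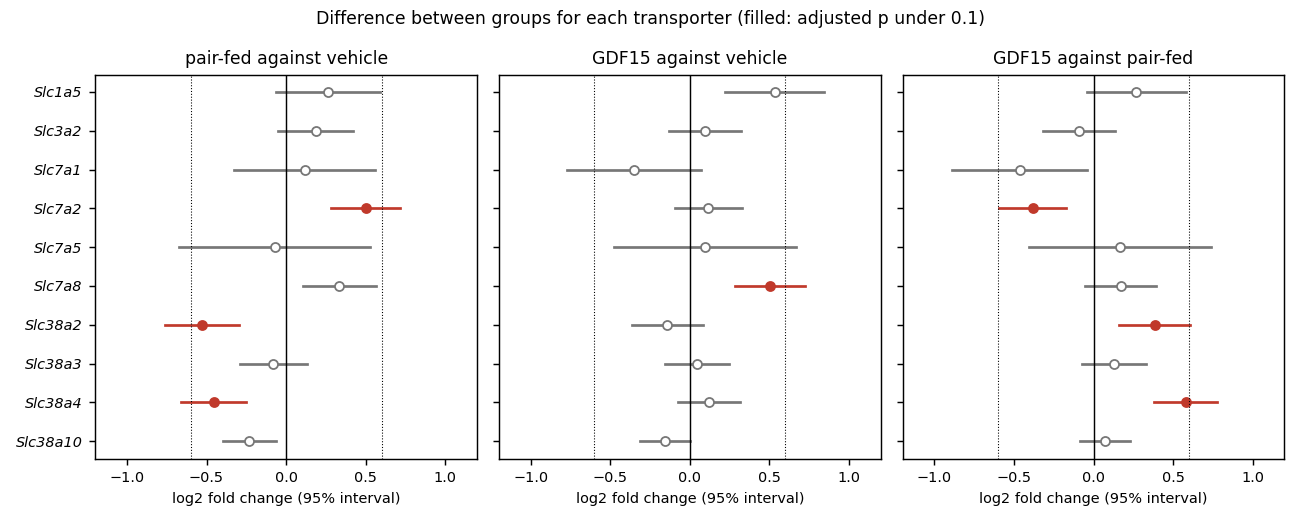
Log2 fold changes with 95% intervals (horizontal axes) of the 10 transporters (rows) in pair-fed against vehicle, GDF15 against vehicle and GDF15 against pair-fed, with filled points at an adjusted p under 0.1 by limma and dotted lines at 0.6 in size. Slc38a2, Slc38a4 and Slc7a2 are filled in both comparisons with pair-fed mice, Slc7a8 is filled against vehicle with GDF15, and every point lies between the dotted lines.

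A few markers of cell types and fibre types passed an adjusted p under 0.1. Of all tested genes, 6.37% did so in pair-fed against vehicle and 0.769% in GDF15 against vehicle. Of 7 fast fibre genes, 2 passed an adjusted p under 0.1 in pair-fed against vehicle, Myh1 (the IIx myosin heavy chain, log2 fold change -0.68, adjusted p = 0.0123) and Ckm (creatine kinase, 0.15, adjusted p = 0.0997). The summed level of the 7 genes ranged from 1912500 to 2152500 normalized counts in vehicle-treated mice, 1946700 to 2149900 in GDF15-treated mice and 2065700 to 2331400 in pair-fed mice. Of 8 endothelial genes, Kdr (a VEGF receptor) was lower against vehicle in both GDF15-treated mice (-0.66, adjusted p = 0.00116) and pair-fed mice (-0.50, adjusted p = 0.00473), and the summed level was 5715 to 6746 in vehicle-treated, 4937 to 5814 in GDF15-treated and 5062 to 6118 in pair-fed mice. Of 4 smooth muscle genes, Cnn1 was lower in pair-fed mice than in vehicle-treated mice (-1.47, adjusted p = 0.0523), at low means of 9.91 and 27.2 normalized counts. The summed level of the 4 genes was 6698 to 7575 in vehicle-treated mice, 6038 to 7519 in GDF15-treated mice and 6054 to 6690 in pair-fed mice, where the pair-fed and vehicle ranges did not overlap. In the fits by limma, 0 markers of macrophages, fibroblasts, adipocytes, Schwann cells, satellite cells, red blood cells or slow fibres passed. Of 2 T cell markers 1 was listed, below the minimum, and of the listed markers of all types 0 were at a count of 0 in every library. The part of these markers in the transporter differences was not tested.

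**Figure D3:**
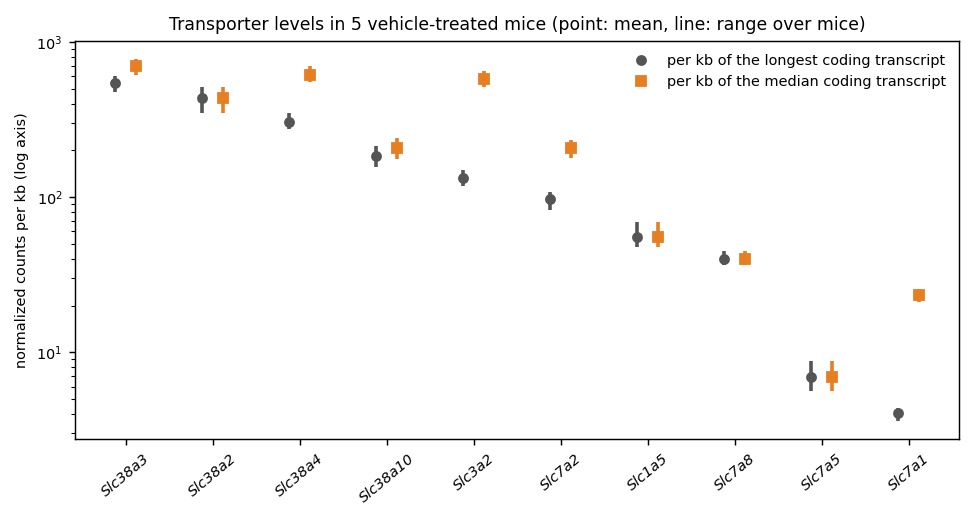
Normalized counts per kb (vertical log axis) of the 10 transporters in the 5 vehicle-treated mice, with the point at the mean and the line from the lowest to the highest mouse, for the longest coding transcript and for the median length of the coding transcripts. Slc38a3 has the highest mean by both lengths, with a range that overlaps the next gene, and Slc7a5 and Slc7a1 are lowest.

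Levels were compared between genes only per kb of transcript. By the longest coding transcript, vehicle-treated mice had 543 normalized counts per kb of Slc38a3, 434 of Slc38a2, 305 of Slc38a4, 183 of Slc38a10, 133 of Slc3a2, 96.7 of Slc7a2, 55.4 of Slc1a5, 39.8 of Slc7a8, 6.97 of Slc7a5 and 4.04 of Slc7a1. Of the neighbours in this order, the ranges over mice overlapped only for Slc38a3 and Slc38a2. By the median length of the annotated coding transcripts, Slc38a3 had the highest mean at 697, while Slc38a4 came to 611 and Slc3a2 to 580, Slc38a2 kept 434, Slc7a2 (208) came level with Slc38a10 (207), and Slc7a1 (23.5) passed Slc7a5. In this order the ranges over mice overlapped for Slc38a3 and Slc38a4, Slc38a4 and Slc3a2, Slc3a2 and Slc38a2, and Slc7a2 and Slc38a10. Slc3a2 moved because its median coding transcript, 0.647 kb long, is far shorter than its longest, of 2.81 kb. By either length all 4 SLC38 carriers stood above both LAT light chains, and the heavy chain stood above them as well.

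The genes whose pattern over the 16 libraries was most like that of each transporter that passed a test were found by Pearson's r on the log2 scale among 11840 genes. For Slc38a2 they were Sdcbp (0.908), Ssh2 (0.897) and Mapk14 (0.886), and for Slc38a4 Tmem38b (0.866), Ptpn11 (0.86) and Klhl18 (0.848). For Slc7a2 they were Pygm (0.849), the muscle glycogen phosphorylase, Sgta (0.841) and Pfkm (0.838), the muscle phosphofructokinase. For Slc7a8 they were Rpl37 (0.905) and Rpl26 (0.876), 2 ribosomal protein genes, and Tuba8 (0.841). These values include the differences between groups and are a description.

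Other genes of amino acid transport and use were read from 4 lists, whose median log2 fold changes lay between -0.09 and 0.08 in all comparisons. By limma 0 of 12 other plasma membrane transporters tested passed both thresholds in any comparison (1 of 12 at an unadjusted p under 0.05 in each comparison). Of 15 lysosomal and mitochondrial carriers 0 passed both thresholds (at an unadjusted p under 0.05, 3 in pair-fed against vehicle, 0 in GDF15 against vehicle and 3 in GDF15 against pair-fed). These counts stand beside the 18.9%, 11.0% and 13.2% of all tested genes at that p. Slc16a10 (TAT1, an aromatic amino acid carrier) and Slc25a15 (the mitochondrial ornithine carrier), singled out after their values were seen, passed the adjusted p-value alone. Slc16a10 had 911 ± 51.5 normalized counts in vehicle-treated mice and 799 ± 50.2 in pair-fed mice (SD, n = 5 each, log2 fold change -0.19, adjusted p = 0.0711 by limma). Slc25a15 had 231 ± 17.4 and 192 ± 18.2 (log2 fold change -0.27, adjusted p = 0.0577 by limma). Slc16a10 lost the call without vehicle mouse 1, 2, 3 or 5 (adjusted p = 0.15, 0.101, 0.158 and 0.134) or pair-fed mouse 5 or 6 (0.162 and 0.177), and Slc25a15 without vehicle mouse 3 or 5 (0.108 and 0.138) or pair-fed mouse 5 or 6 (0.141 and 0.143). Slc7a11, Slc38a1, Slc1a4 and Slc7a10 were below the minimum, at means of 1.15, 5.44, 4.48 and 8.24 normalized counts.

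Of 11 genes of the amino acid response, 1 passed both thresholds in pair-fed against vehicle (0.819% of all tested genes) and in GDF15 against pair-fed (0.279%). At an unadjusted p under 0.05, 3, 2 and 3 of the 11 passed in pair-fed against vehicle, GDF15 against vehicle and GDF15 against pair-fed, beside the same shares of all genes as above. Chac1, which degrades glutathione, had 653.2, 774.1, 1200, 1183 and 1173 normalized counts in the vehicle-treated mice. The pair-fed mice had 1753.5, 1682, 1168.5, 2202 and 1759.5, and the GDF15-treated mice lay between 473.6 and 867.9. Of the pair-fed mice, 4 exceeded every vehicle-treated mouse, and the GDF15-treated mice lay below every pair-fed mouse. Chac1 was higher in pair-fed than in vehicle-treated mice (log2 fold change 0.80, SE 0.20, adjusted p = 0.0363) and lower in GDF15-treated than in pair-fed mice (-1.41, SE 0.19, adjusted p = 0.00243). The first of these calls was lost without pair-fed mouse 5 (0.70, adjusted p = 0.102). GDF15-treated and vehicle-treated mice differed by -0.61 (adjusted p = 0.219). Atf4 itself differed by 0.04 in pair-fed against vehicle (adjusted p = 0.65), and Asns, the asparagine synthetase, by 0.16 (adjusted p = 0.861). In pair-fed against vehicle 7 of the 11 genes lay above 0, with a median of 0.04. Phgdh (0.63, adjusted p = 0.226 by limma) and Sesn2 (0.34, 0.214) were among them, and Atf3 lay below 0 (-0.93, 0.302). Slc38a2, known as a gene of the same response, was lower in the pair-fed mice, where Chac1 was higher. A part of this response in the transporter differences was not tested.

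Of 7 genes of glutamine, glutamate and alanine metabolism, 1 passed both thresholds in pair-fed against vehicle (0.819% of all tested genes) and in GDF15 against vehicle (0.304%). At an unadjusted p under 0.05, 3, 2 and 1 of the 7 passed in pair-fed against vehicle, GDF15 against vehicle and GDF15 against pair-fed, beside 18.9%, 11.0% and 13.2% of all tested genes. Glul, glutamine synthetase, had 2137, 1672, 1805, 1817 and 1620 normalized counts in the vehicle-treated mice. The GDF15-treated mice lay between 2997 and 4641, and the pair-fed mice had 2865, 4578, 2263, 4404 and 4680. Each GDF15-treated and each pair-fed mouse exceeded all 5 vehicle-treated mice. Glul rose 2.03-fold with GDF15 (log2 fold change 1.02, SE 0.16, adjusted p = 0.00841) and 2.00-fold with pair-feeding (1.00, SE 0.17, adjusted p = 0.00426) against vehicle. GDF15-treated and pair-fed mice differed by 0.02 (95% interval -0.33 to 0.36, adjusted p = 0.98), and both calls against vehicle held in each of the 28 alternatives.

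**Figure D4:**
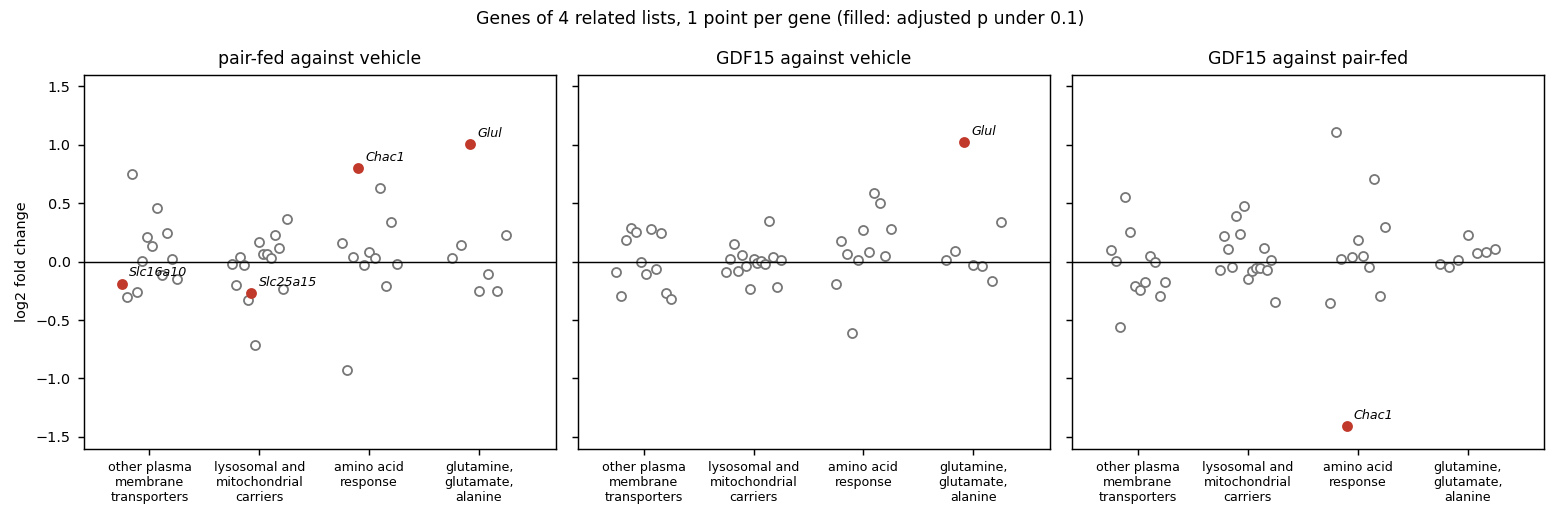
Log2 fold changes (vertical axes) of the tested genes of 4 related lists in the 3 comparisons, with 1 point per gene, filled at an adjusted p under 0.1 by limma. Glul is filled at about 1 in both comparisons with vehicle, and Chac1 lies above 0 for pair-fed against vehicle and below it for GDF15 against pair-fed.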

How the data were processed

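The authors used Trim Galore for trimming, Salmon for quantifying transcripts and DESeq2 for normalizing genes, on mm10. Their versions and the strand setting are not given in the sources used here. The table that the authors deposited as normalized counts holds log2 values from 7.32 to 19.96, which look like output of the variance stabilizing transformation in DESeq2, and 8459 values lie at a shared minimum, read as a count of 0. These were turned back into normalized counts by the inverse of the closed form, the unit for which the tests were planned. Among low values, 85.3% to 95.9% per library then fell within 0.1 reads of whole reads in genes with 1 transcript, against 20.2% to 26.2% in genes with more than 4 transcripts. Whole reads were therefore not recovered, no count test was run, and the depth given is approximate.

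Genes with a mean of 10 normalized counts or more (11841) were tested as log2(normalized count + 1) with limma 3.58.1 in R 4.3.3 (lmFit, contrasts.fit, eBayes with a trend). A single fit held all 3 groups and no covariate. P-values are two-sided and adjusted by Benjamini and Hochberg over all tested genes. A log2 fold change on this scale slightly understates the change of low genes. The fit was also run on simulated data, whose outcome is not reported here and on which no statement rests. Correlations used 100000 permutations within groups, in Python 3.11.15 with scipy 1.17.1. Positions and lengths come from GENCODE vM21 (GRCm38), where 14263 symbols were found, and promoter windows from RefSeq.

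The transporters, the related lists and the marker lists were chosen with earlier results of these data known. Named genes are all 10 transporters, genes of the related lists past both thresholds, and the 3 genes most like each transporter that passed a test. The marker genes that passed an adjusted p under 0.1, and Slc16a10, Slc25a15, Atf4, Asns, Phgdh, Sesn2, Atf3 and the genes below the minimum, were named after their values were seen. Replicates correlated at 0.978 to 0.986 within groups and 0 libraries were identical. The mouse numbers recur between groups on different animals. The deviations of 14 same-numbered pairs correlated at -0.0994 to 0.0665, and those of 71 other pairs between groups at -0.112 to 0.194. The numbers were not used as pairs.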

Additional observations from a re-analysis of the deposited data

Results flagged for a closer look

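Among 30 sets of values (10 transporters in 3 groups), 1 mouse stood apart from the rest of its group. GDF15 mouse 2 had 336.3 normalized counts of Slc1a5, and its gap to the next mouse was 0.731 of the range of the 6 mice, above the 95% critical value of Dixon for 6 values. Chance alone flags about 1 in 20 such sets. The log2 fold change of Slc1a5 between GDF15-treated and vehicle-treated mice was 0.53 with this mouse (adjusted p = 0.153 by limma) and 0.41 without it (adjusted p = 0.235).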

How the results depend on the processing

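The alternatives were other pseudocounts, minimum means, scalings and thresholds, the deposited scale, no trend, library weights, the mouse number as a replicate block, depth as a covariate, only the 2 groups compared, and each library left out. The differences of Slc38a2, Slc38a4 and Slc7a2 between pair-fed and vehicle, and of Slc38a4 between GDF15 and pair-fed, passed under all of them. In GDF15 against pair-fed, the transporters with an adjusted p under 0.1 went from 3 to 1 with no trend, with the replicate block, with depth as a covariate, with only the 2 groups compared and at an adjusted p under 0.05, and to 2 with no minimum mean and with library weights. All tested genes at an adjusted p under 0.1 fell as well, from 257 to 115 with no trend, 190 with the replicate block and 109 with depth. They numbered 122 with only the 2 groups compared, 193 with no minimum mean and 201 with library weights. In GDF15 against vehicle the count of transporters went from 1 to 0 with the replicate block and with depth, where all tested genes went from 91 to 38 and 32. In pair-fed against vehicle the replicate block ended the calls of Chac1, Slc16a10 and Slc25a15 (adjusted p = 0.113, 0.185 and 0.176), and the calls of Slc16a10 and Slc25a15 also ended with no trend (0.118) and with only the 2 groups compared (0.106), respectively, and at an adjusted p under 0.05. The genes of the related lists past both thresholds in pair-fed against vehicle went from 2 to 4 with only the 2 groups compared, while all tested genes past them went from 97 to 94. The cause was not tested. On the deposited log2 scale, used as it stands, all 30 transporter differences kept their direction and side of the threshold, but 15 were over 1.5 times smaller, from Slc3a2, Slc1a5 and Slc7a8 to Slc7a1 (GDF15 against pair-fed -0.09 in place of -0.47) and Slc7a5, so the folds of these genes rest on the reversed transformation.

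With each library left out in turn, transporters past both thresholds numbered 0 to 1 in GDF15 against pair-fed (1, Slc38a4, without GDF15 mouse 2 or 5 or pair-fed mouse 2 or 4) and 0 to 1 in pair-fed against vehicle (1, Slc38a2, without vehicle mouse 3). All tested genes past both numbered 15 to 62 and 60 to 157. Transporters with an adjusted p under 0.1 numbered 3 to 4 in pair-fed against vehicle, 1 to 3 in GDF15 against pair-fed (1 without GDF15 mouse 2, 3, 4 or 5 or pair-fed mouse 2 or 5) and 0 to 1 in GDF15 against vehicle (0 without vehicle mouse 2 or 5 or GDF15 mouse 4 or 6). All tested genes at that adjusted p numbered 406 to 1048, 66 to 372 and 45 to 97 in the same order. Genes of the related lists past both thresholds numbered 1 to 2 in GDF15 against pair-fed (2 without GDF15 mouse 6) and 1 to 3 in pair-fed against vehicle (1 without pair-fed mouse 5). The correlations ranged from 0.141 to 0.465 (Slc3a2 with Slc7a5), 0.417 to 0.602 (Slc3a2 with Slc7a8) and 0.165 to 0.455 (Slc7a5 with Slc1a5).

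Directions turned only for differences that had not passed. With depth as a covariate, GDF15 against vehicle gave -0.019 for Slc3a2, -0.11 for Slc7a5, -0.053 for Slc38a3 and 0.017 for Slc25a15, and GDF15 against pair-fed gave -0.063 for Slc7a5 and -0.047 for Glul. The replicate block gave -0.042 for Glul. With each library left out, Slc7a5 ranged from -0.059 to 0.30 (GDF15 against vehicle), from -0.24 to 0.052 (pair-fed against vehicle) and from 0.012 to 0.37 (GDF15 against pair-fed), and Glul from -0.15 to 0.11 (GDF15 against pair-fed). Per kb of the longest transcript, the vehicle levels were 133.4 for Slc3a2, 4.04 for Slc7a1, 96.7 for Slc7a2, 543.3 for Slc38a3 and 305.1 for Slc38a4. Slc7a5 and Slc7a1 had means under 50 normalized counts and the widest intervals of the 10 transporters.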

Other observations

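Ratios within a library do not depend on the scaling between libraries, and 3 of them were formed after the values had been seen. The ratio of Slc7a2 to Slc38a4 normalized counts was 0.527 to 0.762 in vehicle-treated mice (median 0.615), 0.532 to 0.785 in GDF15-treated mice (0.627) and 1.11 to 1.41 in pair-fed mice (1.22). The ratio of Slc7a2 to Slc38a2 was 0.309 to 0.524 in vehicle-treated mice (median 0.352), 0.367 to 0.516 in GDF15-treated mice (0.494) and 0.666 to 0.938 in pair-fed mice (0.747). All pair-fed mice lay above all others for both ratios. Both set a gene already seen to be higher with pair-feeding over one already seen to be lower, so this separation is no separate support. The ratio of Slc38a4 to Slc38a2 overlapped between the 3 groups, at medians of 0.649 in vehicle-treated, 0.704 in GDF15-treated and 0.622 in pair-fed mice.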
